A study of Homo sapiens with 4 samples.

Results

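The genes of the WNT pathway are described here in MM134, an estrogen-responsive invasive lobular breast cancer cell line, by comparing cells labelled HER2 L755S with cells labelled HER2 WT. Members were taken by gene symbol alone, as every WNT ligand, frizzled receptor and LRP5 or LRP6 coreceptor, together with the DKK and SFRP inhibitors, the LGR4 to LGR6, RNF43 and ZNRF3 receptors and ligases, the secretion factors PORCN and WLS, the dishevelleds, AXIN1, AXIN2, APC, the GSK3 kinases and the TCF and LEF factors. The rule found 58 of 60675 genes in the deposited tables. Of these, 35 had enough reads to be tested and 23 fell under the filter on low counts. The 2 HER2 L755S libraries and the 2 HER2 WT libraries all came from cells grown to 70% confluence and then kept without estrogen for 7 days, in medium free of phenol red with 5% charcoal-stripped serum. No library of cells with estrogen is among them, so the values describe the 2 lines under deprivation and not the response to it. HER2, encoded by ERBB2, is a receptor tyrosine kinase, and L755S is a substitution in its kinase domain that is found in breast cancers. The sources used here do not say how the HER2 forms were introduced, whether each line is 1 clone, or whether its libraries are separate cultures. The p-values below therefore take in only how far the libraries of a line lie apart, which may be technical variation.

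WNT proteins are secreted lipid-modified signals. PORCN attaches the lipid, WLS carries the ligand to the cell surface, and frizzleds with LRP5 or LRP6 receive it. In the β-catenin branch the receptors recruit dishevelled, the complex of AXIN, APC and GSK3 stops marking β-catenin for destruction, and β-catenin then works with TCF and LEF factors on target genes. RNF43 and ZNRF3 remove frizzleds from the membrane, and LGR receptors with R-spondins hold them back. In the mammary gland WNT4 is a progesterone-induced ligand, and in lobular breast cancer lines it has been described as an estrogen-regulated gene needed for growth.

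Total expected counts per library were 28836412 and 27423247 for HER2 L755S and 31088422 and 28804772 for HER2 WT. Mitochondrial genes took 4.03% and 13.5% of the counts in HER2 L755S libraries 1 and 2, and 4.40% and 8.83% in HER2 WT libraries 1 and 2, so the libraries numbered 2 were higher in both lines. ERBB2 was at 2443 and 1203 CPM (read counts put on a common library size) in HER2 L755S, against 1934 and 1936 CPM in HER2 WT, with overlapping lines. Gene counts do not show which ERBB2 allele was expressed. The 8 luminal epithelial markers were all measured and summed to 6460 and 7078 CPM in HER2 L755S and 7713 and 7015 CPM in HER2 WT. The 6 basal and myoepithelial markers summed to 0.786 and 1.25 CPM in HER2 L755S and 0.834 and 0.792 CPM in HER2 WT, and the 8 leukocyte markers to under 1 CPM in each library, with CD3E, CD3D and MS4A1 at 0. The 10 fibroblast and endothelial markers summed to 115 and 62.3 CPM in HER2 L755S and 101 and 55.0 CPM in HER2 WT, with PECAM1 and CDH5 at 0. Nearly all of that sum was COL1A1, at 113.9 and 58.5 CPM in HER2 L755S and 100.5 and 51.0 CPM in HER2 WT, and each of the other markers of the list was under 2 CPM in every library. COL1A2 had 6 and 49 counts in HER2 L755S and 0 and 45 in HER2 WT. COL3A1 had 0 and 32 in HER2 L755S and 1 and 53 in HER2 WT. Both were thus higher in the libraries numbered 2 of each line, where COL1A1 was lower. In bulk RNA, fewer cells of a kind and less RNA per cell cannot be told apart.

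Among the 35 tested members, 1 frizzled, FZD1, rose and 1 ligand, WNT9A, fell in HER2 L755S at an adjusted p under 0.05. Over all 16538 tested genes, 0.738% were called higher and 0.949% lower, so the count of called members is small in either direction. By edgeR's quasi-likelihood test, 11 of the 35 members had an unadjusted p under 0.05, against 1742 of the 16538 tested genes. In CPM, the HER2 L755S and HER2 WT libraries overlapped for 16 members. They did not overlap for 7 members that were higher in HER2 L755S and 12 that were lower. Among all tested genes 16.9% were higher without overlap and 19.3% lower. The median log2 fold change of the tested members was -0.03, against 0.00 over all tested genes, with 14 members above 0 and 21 below. Members were spread more widely than their median: 11 of the 35, or 31.4%, had a log2 fold change beyond 1 in either direction, against 11.4% of all tested genes. The libraries carry replicate numbers, and within them the median difference of the members, HER2 L755S minus HER2 WT, was -0.03 on the log2 scale for number 1 and -0.15 for number 2. The sign was the same under both numbers for 25 members and differed for 10.

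**Figure D1:**
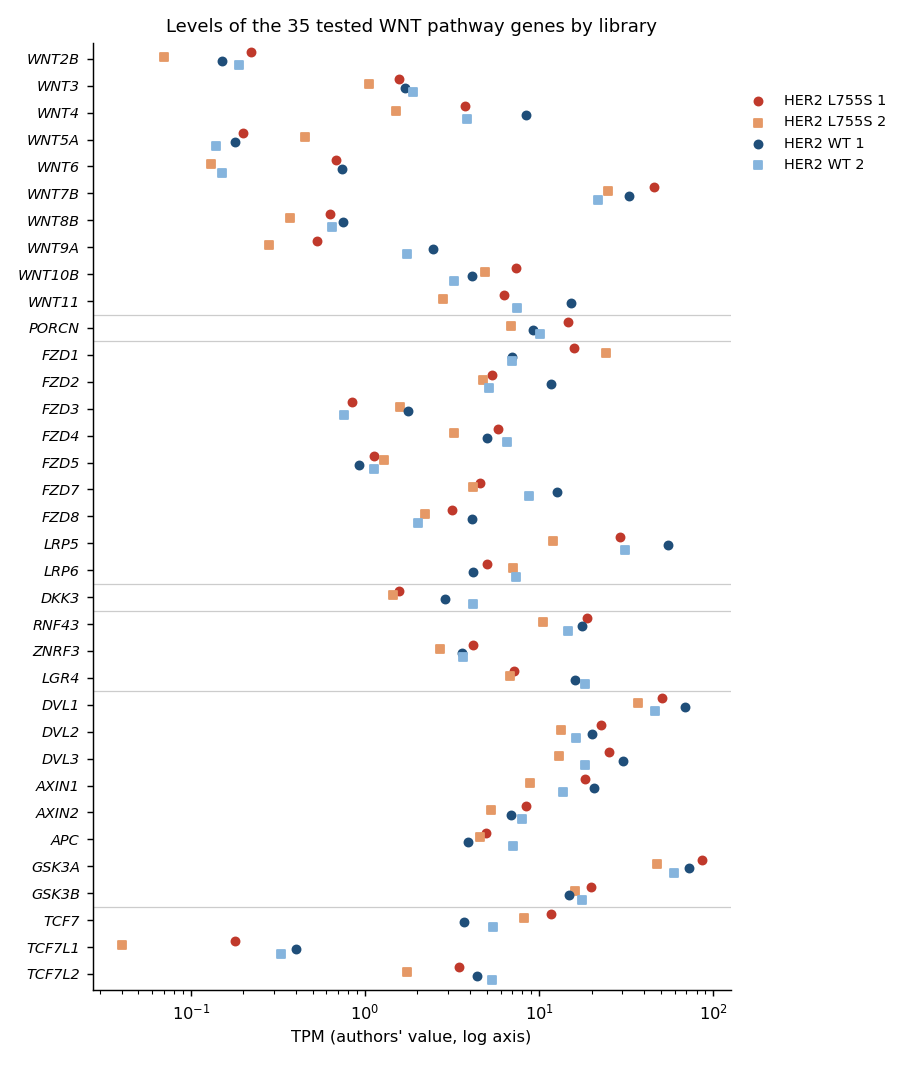
Level of each of the 35 tested members in each library, in TPM (the authors' level per transcript length, log axis), grouped by role, with 1 point per library and the HER2 L755S points above the HER2 WT points. GSK3A, DVL1 and WNT7B stood at the high end, and TCF7L1, WNT2B and WNT5A at the low end, in both lines.

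Promoter sequences are shown for 3 members: the 2 called genes, and WNT4, the ligand described for this kind of tumour. The part of these sequences in the differences between the lines was not tested. The WNT9A and WNT4 stretches are the 250 bases directly upstream of a RefSeq transcript start on build GRCh38.p14. The FZD1 stretch is the first 181 bases of such a window, which ends before the RefSeq start because it stops at the GENCODE gene start. All are written 5′ to 3′ on the gene's strand. Capitals mark the GC box, GGGCGG or its complement CCGCCC, a motif bound by SP-family factors; overlapping matches run together. The WNT9A stretch is chr1:227947933-227948182 on the minus strand, the WNT4 stretch chr1:22143098-22143347 on the minus strand, and the FZD1 stretch chr7:91264183-91264363 on the plus strand.
WNT9A: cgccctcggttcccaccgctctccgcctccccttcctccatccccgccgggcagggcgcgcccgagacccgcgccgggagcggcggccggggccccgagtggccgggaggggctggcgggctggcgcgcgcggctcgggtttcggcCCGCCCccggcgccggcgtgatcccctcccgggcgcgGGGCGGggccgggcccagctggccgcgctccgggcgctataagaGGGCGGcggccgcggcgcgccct
WNT4: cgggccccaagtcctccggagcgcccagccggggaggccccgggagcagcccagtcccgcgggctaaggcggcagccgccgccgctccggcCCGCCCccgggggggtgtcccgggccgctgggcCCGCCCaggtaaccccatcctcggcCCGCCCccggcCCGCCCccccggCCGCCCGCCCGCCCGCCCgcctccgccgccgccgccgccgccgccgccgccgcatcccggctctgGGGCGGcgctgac
FZD1: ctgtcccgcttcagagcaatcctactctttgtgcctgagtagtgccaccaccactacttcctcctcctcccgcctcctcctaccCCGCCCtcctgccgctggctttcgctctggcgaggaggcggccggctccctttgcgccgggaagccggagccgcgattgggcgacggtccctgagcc
The WNT9A stretch holds 3 GC boxes and is 84.4% G and C, and the WNT4 stretch holds 9 and is 86.8% G and C. The FZD1 stretch holds 1 GC box and is 67.4% G and C. The WNT4 stretch lies inside the GENCODE gene, upstream of the start of 1 transcript and within the span of another.

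RefSeq gave 54 promoters for 42 of the 58 members, each searched on both strands over the whole 250 bases upstream of the start; the FZD1 stretch printed above is shorter because it stops at the start of the GENCODE gene. The GC box was in 36 of the 54 (66.7%), against 42.6% of 35116 promoters of the same length, and the median G and C content was 65.2% in member promoters and 58.0% in all. The core of the TCF and LEF site, CTTTGAT, was in 0 of the 54, against 2.26% of all promoters. The palindromic estrogen response element GGTCANNNTGACC was in 0 of the 54, against 0.04% of all. The AP-1 site TGANTCA was in 1 of the 54, in the RNF43 promoter, against 6.57% of all. No motif searched contains another, and a motif that is missing says only that these letters are not in these windows.

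WNT ligands bind frizzleds and set which branch of the pathway is engaged. Of the 19 ligands, 10 were tested: WNT9A fell, and the other 9 did not pass the test. Of the 10, 3 had positive and 7 negative log2 fold changes, and 6 were lower and 2 higher in HER2 L755S without overlap of the lines, where 19.3% and 16.9% of all tested genes were. Of the 6, WNT2B, WNT4 and WNT9A lie on chromosome 1 and WNT11 on chromosome 11, where lower values were more frequent among all genes, as given below. WNT7B was the most abundant ligand per length in every library. Per length, WNT7B was at 45.6 and 24.8 TPM in HER2 L755S and 32.7 and 21.9 TPM in HER2 WT, which is 68.2% and 67.7% of the summed TPM of all ligands in HER2 L755S, against 49.1% and 53.0% in HER2 WT. WNT7B is a ligand made by mammary epithelium. Its scaled counts were 129 and 90.7 CPM in HER2 L755S and 91.7 and 63.7 CPM in HER2 WT, so the lines overlapped, and the log2 fold change of 0.50 (SE 0.34) had an adjusted p of 0.80 by edgeR's quasi-likelihood test.

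WNT9A lies on chromosome 1 (GRCh38, 227918656 to 227947898, minus strand; ENSG00000143816) and encodes a ligand best known from joint and limb development. It was at 1.54 and 1.05 CPM in HER2 L755S and 7.01 and 5.17 CPM in HER2 WT, with means of 1.29 ± 0.34 CPM in HER2 L755S against 6.09 ± 1.31 CPM in HER2 WT (SD, n = 2 each). Every HER2 WT library was several times above every HER2 L755S library. The log2 fold change was -2.23 (SE 0.46), with an adjusted p of 0.038 by edgeR's quasi-likelihood test with Benjamini-Hochberg adjustment. The log2 difference was -2.18 within number 1 and -2.28 within number 2. The call was lost without HER2 WT library 1, at an adjusted p of 0.076, and without HER2 L755S library 2, at 0.088, within a range of 0.00044 to 0.088 over all settings tried. The signal is low: WNT9A was at 0.53 and 0.28 TPM in HER2 L755S and 2.47 and 1.75 TPM in HER2 WT.

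WNT11 is a ligand known mainly for signalling without β-catenin. It was at 8.07 and 4.75 CPM in HER2 L755S and 18.7 and 10.1 CPM in HER2 WT, without overlap, and its log2 fold change of -1.16 (SE 0.43) had an adjusted p of 0.30. WNT10B, a β-catenin branch ligand that drives mammary tumours when overexpressed in mice, was at 11.7 and 9.74 CPM in HER2 L755S and 6.36 and 4.68 CPM in HER2 WT. The lines did not overlap, and the log2 fold change of 0.96 (SE 0.38) had an adjusted p of 0.36. By share of ligand TPM, WNT11 took 9.33% and 7.66% in HER2 L755S, against 22.9% and 18.2% in HER2 WT. WNT10B took 10.99% and 13.4% in HER2 L755S, against 6.13% and 7.88% in HER2 WT. In HER2 L755S, WNT10B therefore stood second among the ligands in both libraries, a place held by WNT11 in both HER2 WT libraries. The summed ligand level followed the library number and not the line: it was 66.9 and 36.6 TPM in HER2 L755S and 66.7 and 41.2 TPM in HER2 WT.

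**Figure D2:**
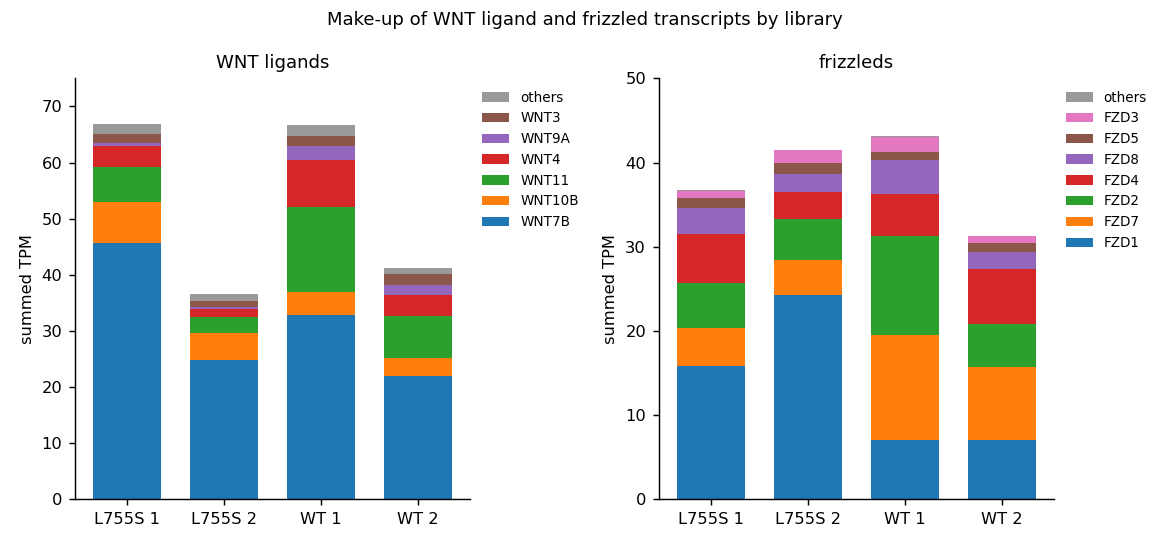
Stacked bars of TPM (authors' values) for the WNT ligands and the frizzleds, 1 bar per library. WNT7B took the largest part of the ligand bar in every library, and FZD1 took 42.9% and 58.5% of the frizzled bar in HER2 L755S, against 16.1% and 22.4% in HER2 WT.

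The remaining tested ligands were at low levels. WNT3 was at 3.52 and 3.31 CPM in HER2 L755S and 4.05 and 4.65 CPM in HER2 WT, with a log2 fold change of -0.35. WNT5A, a ligand of the β-catenin-independent branch, was at 0.889 and 1.83 CPM in HER2 L755S and 0.525 and 0.620 CPM in HER2 WT, with a log2 fold change of 1.24 and an adjusted p of 0.56. Both differences were without overlap of the lines and neither passed the test. WNT2B was at 0.479 and 0.662 CPM in HER2 L755S and 0.927 and 1.41 CPM in HER2 WT, with a log2 fold change of -1.03. WNT8B was at 0.923 and 0.701 CPM in HER2 L755S and 1.08 and 0.964 CPM in HER2 WT, with a log2 fold change of -0.33. In CPM both were lower in HER2 L755S without overlap, and neither passed the test. Per length WNT2B overlapped between the lines, at 0.22 and 0.07 TPM in HER2 L755S and 0.15 and 0.19 TPM in HER2 WT. WNT6, at 23 and 5 counts in HER2 L755S and 27 and 5 in HER2 WT, had a log2 fold change of -0.03 and followed the library number. Among the 9 ligands under the filter, WNT1, WNT7A, WNT8A and WNT10A had no count in any library. That allows up to 0.117 CPM in the shallowest (3 counts, counting error only). The other 5 (WNT2, WNT3A, WNT5B, WNT9B and WNT16) had at most 4 counts in a library.

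WNT4 lies on chromosome 1 (22117305 to 22143969, minus strand; ENSG00000162552). It had 147 and 38 expected counts in HER2 L755S and 536 and 234 in HER2 WT, which is 5.03 and 1.48 CPM in HER2 L755S and 16.6 and 8.06 CPM in HER2 WT. Both HER2 L755S libraries were below both HER2 WT libraries, and the library numbered 2 was the lower one in each line. The means were 3.25 ± 2.51 CPM in HER2 L755S against 12.3 ± 6.01 CPM in HER2 WT (SD, n = 2 each). The log2 fold change was -1.91 (SE 0.57), with an adjusted p of 0.15 by edgeR's quasi-likelihood test, so WNT4 did not pass. The log2 difference was -1.72 within number 1 and -2.43 within number 2. The outcome turned on the libraries and the tool: the adjusted p was 0.00048 without HER2 L755S library 1, 0.00085 without HER2 WT library 2 and 0.026 by DESeq2, within a range of 0.00014 to 0.38 over all settings.

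For WNT4 the difference per length was smaller than the difference in counts. The effective length, which is the transcript length available to fragments as RSEM averages it over a gene's transcripts, was 1728 and 984 bases in HER2 L755S and 2595 and 2668 bases in HER2 WT. WNT4 has 3 transcripts in the deposited tables, with 5 exons over 3845 bases, 2 exons over 680 bases and 3 exons over 482 bases. The shorter effective length therefore means that RSEM gave a larger part of the HER2 L755S reads to the short transcripts. Between the mean effective lengths of the lines, the log2 shift of WNT4 was -0.96. Among all tested genes 58, or 0.351%, WNT4 included, were shortened at least that much in HER2 L755S on the means, without overlap of the lines. In TPM, WNT4 was at 3.74 and 1.51 in HER2 L755S and 8.43 and 3.83 in HER2 WT, so HER2 L755S library 1 and HER2 WT library 2 were nearly level. The log2 TPM difference was -1.17 within number 1 and -1.34 within number 2, where the median over genes was -0.02 and -0.33. An antisense gene, AL445253.1, overlaps WNT4, and the sources used here do not say whether the counting used strand. An antisense gene overlaps 16 of the 35 tested members in all, and without strand the reads of such a pair cannot be told apart.

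**Figure D3:**
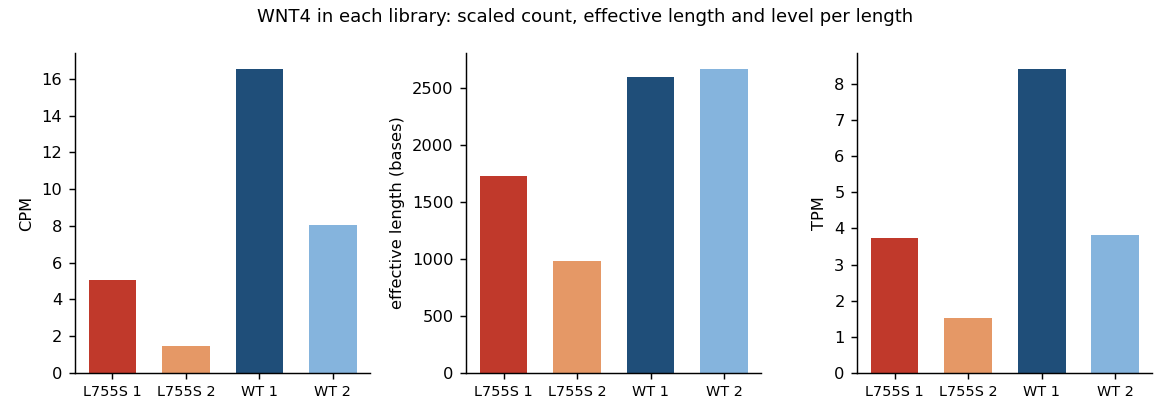
WNT4 in each library as CPM (left), effective length in bases (middle) and authors' TPM (right), 1 bar per library. CPM was below both HER2 WT bars in both HER2 L755S libraries, the effective length was 1728 and 984 bases in HER2 L755S against 2595 and 2668 bases in HER2 WT, and TPM nearly met at 3.74 in HER2 L755S library 1 and 3.83 in HER2 WT library 2.

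Of the secretion factors, PORCN was measured at 13.7 and 9.89 CPM in HER2 L755S and 9.55 and 9.74 CPM in HER2 WT. Its log2 fold change of 0.29 (SE 0.36) had an adjusted p of 0.96. WLS, the carrier that brings ligands to the surface, had only 1 and 2 counts in HER2 L755S and 4 and 0 counts in HER2 WT, so no comparison could be made for it. An antisense-overlapping gene, GNG12-AS1, lies at the WLS locus.

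Frizzleds are the membrane receptors of WNT ligands, and LRP5 and LRP6 are their coreceptors. Of these 12 genes 9 were tested: FZD1 rose in HER2 L755S, and the other 8 did not pass. FZD1 lies on chromosome 7 (91264364 to 91271326, plus strand; ENSG00000157240). It was at 82.6 and 163 CPM in HER2 L755S and 35.6 and 37.1 CPM in HER2 WT, with means of 122.6 ± 56.6 CPM in HER2 L755S against 36.4 ± 1.13 CPM in HER2 WT (SD, n = 2 each). Both HER2 L755S libraries were above both HER2 WT libraries, but they differed from each other far more than the HER2 WT libraries did. The log2 fold change was 1.75 (SE 0.38), with an adjusted p of 0.044 by edgeR's quasi-likelihood test. The log2 difference was 1.22 within number 1 and 2.13 within number 2. Without HER2 L755S library 2, which also had the highest mitochondrial share, the log2 fold change was 1.17 and the adjusted p 0.27; the part of that share in the result was not tested. The call was also lost with no scaling (0.056), with limma-voom (0.055) and with scaling on genes outside chromosomes 1, 8 and 11 (0.053), within a range of 8.3e-05 to 0.27 over all settings.

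FZD7, a receptor tied to stem and basal-like breast cells, had values opposite to those of FZD1. It was at 12.99 and 15.1 CPM in HER2 L755S and 34.7 and 24.9 CPM in HER2 WT, without overlap, and its log2 fold change was -1.08 (SE 0.35) with an adjusted p of 0.19. FZD2, another receptor of the same subgroup as FZD1 and FZD7, was at 7.90 and 8.96 CPM in HER2 L755S and 16.7 and 7.71 CPM in HER2 WT. Its lines overlapped, its log2 difference was -1.08 within number 1 and 0.22 within number 2, and its log2 fold change of -0.54 (SE 0.42) had an adjusted p of 0.87. By share of frizzled TPM, FZD7 took 12.5% and 10.1% in HER2 L755S, against 29.1% and 27.8% in HER2 WT. FZD1 was thus the frizzled with the most transcript per length in both HER2 L755S libraries, and FZD7 in both HER2 WT libraries. The summed frizzled level was 36.7 and 41.5 TPM in HER2 L755S and 43.2 and 31.2 TPM in HER2 WT, with overlapping lines.

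FZD4, the Norrin receptor, was at 32.1 and 22.9 CPM in HER2 L755S and 27.0 and 36.7 CPM in HER2 WT. Its log2 fold change was -0.21 (SE 0.35, adjusted p 0.99), and its log2 difference was 0.25 within number 1 and -0.68 within number 2. FZD3, a polarity receptor, was at 3.76 and 6.58 CPM in HER2 L755S and 2.50 and 3.51 CPM in HER2 WT, without overlap. Its log2 fold change was 0.78 (SE 0.46, adjusted p 0.70 by edgeR's quasi-likelihood test). Per length the lines overlapped for FZD3, at 0.84 and 1.58 TPM in HER2 L755S and 1.77 and 0.76 TPM in HER2 WT. FZD5 was at 5.68 and 8.30 CPM in HER2 L755S and 4.54 and 5.79 CPM in HER2 WT, with a log2 fold change of 0.44 (SE 0.40, adjusted p 0.92). FZD8 was at 9.30 and 8.37 CPM in HER2 L755S and 11.9 and 6.06 CPM in HER2 WT, with a log2 fold change of -0.02 (SE 0.41, adjusted p above 0.99). FZD5 and FZD8 both had overlapping lines. FZD10 had no count in any library, FZD6 had at most 1, and FZD9 had 5 and 0 counts in HER2 L755S and 7 and 0 in HER2 WT.

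LRP5 was at 72.6 and 40.2 CPM in HER2 L755S and 121 and 80.8 CPM in HER2 WT. The lines did not overlap, yet HER2 L755S library 1 was close to HER2 WT library 2, and the log2 fold change of -0.84 (SE 0.38) had an adjusted p of 0.46. LRP6 was at 33.0 and 54.8 CPM in HER2 L755S and 25.4 and 49.6 CPM in HER2 WT, with a log2 fold change of 0.23 (SE 0.41) and an adjusted p above 0.99. LRP6 overlapped between the lines and was higher in the libraries numbered 2. Per length, LRP5 was the more abundant coreceptor in every library, at 29.2 and 11.99 TPM in HER2 L755S and 54.8 and 31.1 TPM in HER2 WT, where LRP6 was at 5.02 and 7.03 TPM in HER2 L755S and 4.18 and 7.32 TPM in HER2 WT.

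**Figure D4:**
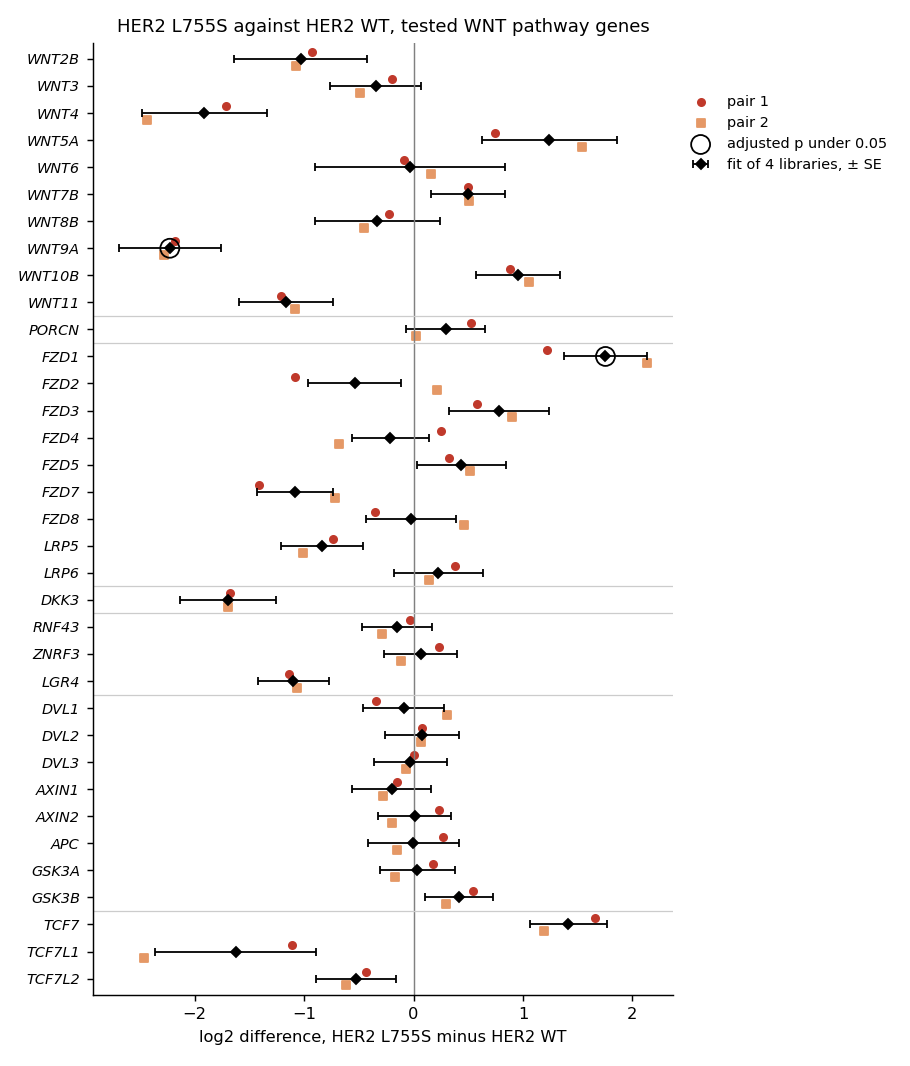
Log2 difference of each tested member, HER2 L755S minus HER2 WT, with the fitted value and its SE and the differences within replicate numbers 1 and 2. FZD1 at 1.75 and WNT9A at -2.23 passed the test, and FZD2 and FZD4 had differences of opposite sign under the 2 numbers.

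Secreted inhibitors block WNT signalling outside the cell, DKK1 at LRP5 and LRP6 and the SFRPs at the ligand. Nearly all were silent in these cells. DKK2, DKK4, SFRP1, SFRP4 and SFRP5 had no count in any library, SFRP2 had 1 count in 1 library, and DKK1 had no count in either HER2 L755S library and 3 and 1 in HER2 WT. DKK3, a divergent DKK that does not bind the LRP coreceptors as DKK1 does, was the 1 tested member of the group. It was at 1.61 and 1.56 CPM in HER2 L755S and 5.19 and 5.10 CPM in HER2 WT, with the libraries of each line close together. The log2 fold change was -1.70 (SE 0.44) and the adjusted p 0.089 by edgeR's quasi-likelihood test, within a range of 0.0045 to 0.23 over all settings, and 0.028 by DESeq2. The effective length of DKK3 was also shorter in both HER2 L755S libraries, with a log2 shift of -0.71 between the means of the lines. The TPM of DKK3, at 1.57 and 1.45 in HER2 L755S and 2.87 and 4.19 in HER2 WT, gave a smaller difference.

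Among the receptors of R-spondins and the ligases they restrain, LGR4 was the LGR these cells expressed. LGR4 was at 27.2 and 33.6 CPM in HER2 L755S and 60.0 and 70.2 CPM in HER2 WT. Both HER2 L755S libraries were well below both HER2 WT libraries; the log2 fold change of -1.10 (SE 0.33) had an adjusted p of 0.15. LGR5, a stem cell marker in several tissues, had no count in any library, and LGR6 had counts only in HER2 WT library 1, where there were 5. RNF43 was at 56.3 and 45.2 CPM in HER2 L755S and 57.6 and 55.3 CPM in HER2 WT, with a log2 fold change of -0.15. ZNRF3 was at 21.4 and 17.7 CPM in HER2 L755S and 18.2 and 19.2 CPM in HER2 WT, with a log2 fold change of 0.07. Both ligases had overlapping lines. The R-spondins RSPO1 to RSPO4, ligands of the LGR receptors, had at most 2 counts in a library.

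The genes of the intracellular relay had small fitted differences between the lines. All 8 genes were tested and none passed edgeR's quasi-likelihood test, DESeq2 or limma-voom. None had an unadjusted p under 0.05 by edgeR's test, where 1742 of all 16538 tested genes did. The log2 fold changes of the 8 ran from -0.20 to 0.41 with a median of 0.01. Of the 8, 7 overlapped between the lines, where 10549 of all 16538 tested genes did. On simulated data the test recovered only 6.5% of genes changed 2-fold, so changes of that size could be missed. AXIN2, a scaffold that is itself a widely used target of β-catenin signalling, was at 22.4 and 20.1 CPM in HER2 L755S and 19.1 and 23.0 CPM in HER2 WT, with a log2 fold change of 0.01 (SE 0.33). AXIN1 was at 43.5 and 28.2 CPM in HER2 L755S and 48.1 and 34.3 CPM in HER2 WT, with a log2 fold change of -0.20. These 2 scaffolds overlapped between the lines. GSK3B, the kinase that marks β-catenin, was the exception to overlap, at 98.5 and 105 CPM in HER2 L755S and 67.5 and 85.5 CPM in HER2 WT, with a log2 fold change of 0.41 (SE 0.31, adjusted p 0.86). APC averaged 35.5 CPM in each line, with SDs of 11.1 in HER2 L755S and 17.7 in HER2 WT. GSK3A averaged 84.7 ± 27.8 CPM in HER2 L755S against 82.6 ± 13.2 CPM in HER2 WT (SD, n = 2 each), with a log2 fold change of 0.04. The dishevelleds relay the signal from the receptors. DVL1 averaged 82.3 ± 11.9 CPM in HER2 L755S against 87.7 ± 39.2 CPM in HER2 WT (log2 fold change -0.09). DVL2 averaged 33.3 ± 5.79 CPM in HER2 L755S against 31.7 ± 5.38 CPM in HER2 WT (log2 fold change 0.07). DVL3 averaged 63.2 ± 13.2 CPM in HER2 L755S against 64.4 ± 11.3 CPM in HER2 WT (log2 fold change -0.03). None of the 3 dishevelleds separated the lines. DVL1 was the dishevelled with the most transcript per length, at 51.5% and 58.5% of dishevelled TPM in HER2 L755S and 57.7% and 57.3% in HER2 WT.

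TCF and LEF factors bind DNA for β-catenin. None of the 3 tested members passed edgeR's quasi-likelihood test, while DESeq2 called 1 and limma-voom none. By edgeR's test 2 had an unadjusted p under 0.05, as did 1742 of all 16538 tested genes. TCF7, which encodes TCF1, was at 21.8 and 20.8 CPM in HER2 L755S and 6.89 and 9.09 CPM in HER2 WT. Its libraries were close within each line and well apart between the lines. The log2 fold change was 1.42 (SE 0.35) and the adjusted p 0.079, within a range of 0.00041 to 0.34 over all settings; DESeq2 gave 0.0071. TCF7L2, which encodes TCF4, was at 6.87 and 6.47 CPM in HER2 L755S and 9.30 and 9.92 CPM in HER2 WT, without overlap, with a log2 fold change of -0.53 (SE 0.36, adjusted p 0.82). TCF7L1 was at 0.376 and 0.117 CPM in HER2 L755S and 0.834 and 0.723 CPM in HER2 WT, with a log2 fold change of -1.62 and an adjusted p of 0.47. Per length, TCF7 made up 75.02% and 80.0% of TCF and LEF TPM in HER2 L755S, against 43.0% and 48.8% in HER2 WT, where TCF7L2 took 50.9% and 48.3%. SKP1, on the opposite strand, overlaps TCF7. LEF1 had 8 and 6 counts in HER2 L755S and 3 and 0 in HER2 WT, a ratio of 4.97 with an exact 95% interval of 1.39 to 27.0 for counting error only.

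Other genes of the pathway were taken from 4 further lists. Called genes were found only on the list named for β-catenin-independent receptors and polarity genes. Of its 15 genes 13 were tested, and 1 was called higher and 1 lower in HER2 L755S. Over all tested genes, 0.738% were called higher and 0.949% lower. PTK7, a pseudokinase coreceptor of WNT ligands, was at 34.9 and 16.9 CPM in HER2 L755S and 5.93 and 3.79 CPM in HER2 WT. Its log2 fold change was 2.41 (SE 0.45), with an adjusted p of 0.022 by edgeR's quasi-likelihood test and at most 0.033 under the other settings. ROR1, a receptor of WNT5A, was at 2.02 and 2.14 CPM in HER2 L755S and 7.82 and 9.64 CPM in HER2 WT. Its log2 fold change was -2.07 (SE 0.41), with an adjusted p of 0.031, and the call was lost without HER2 L755S library 1 (0.051) and without HER2 WT library 2 (0.054), within a range of 0.00026 to 0.054. Neither gene overlapped between the lines. CELSR1, a cadherin of planar polarity, was at 72.9 and 103 CPM in HER2 L755S and 204 and 226 CPM in HER2 WT, with a log2 fold change of -1.29 (SE 0.32) and an adjusted p of 0.075.

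Of 20 other secreted regulators 9 were tested, and none passed edgeR's quasi-likelihood test, DESeq2 or limma-voom. By edgeR's test 2 had an unadjusted p under 0.05, as did 1742 of all 16538 tested genes. The lowest adjusted p-values belonged to DRAXIN, a secreted axon guidance protein that inhibits WNT signalling, at 0.957 and 0.701 CPM in HER2 L755S and 2.38 and 2.27 CPM in HER2 WT (log2 fold change -1.48, adjusted p 0.25), to the glypican GPC3 (0.80, adjusted p 0.46) and to TRABD2B, a protease that cleaves WNT ligands (0.72, adjusted p 0.71). Of 26 other components of the β-catenin branch 25 were tested, and none passed with any of the 3 tools or had an unadjusted p under 0.05. CTNNB1, which encodes β-catenin, was at 152 and 116 CPM in HER2 L755S and 125 and 134 CPM in HER2 WT, with overlapping lines and a log2 fold change of 0.05 (SE 0.31). The coactivator BCL9 and the corepressors TLE3 and TLE1 had log2 fold changes of -0.62, -0.49 and 0.64, each with an adjusted p above 0.6.

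WNT target genes outside the members did not move in a common direction. Of 18 genes 15 were tested, 6 with positive and 9 with negative log2 fold changes and a median of -0.12. None passed edgeR's quasi-likelihood test or limma-voom, while DESeq2 called 1 higher and 1 lower. By edgeR's test 5 had an unadjusted p under 0.05, as did 1742 of all 16538 tested genes. CCND1, which encodes cyclin D1 and is also a target of the estrogen receptor, was at 3348 and 2623 CPM in HER2 L755S and 6585 and 7020 CPM in HER2 WT. Its log2 fold change was -1.19 (SE 0.28), with an adjusted p of 0.066 by edgeR's quasi-likelihood test. CCND1 lies on chromosome 11, and its neighbouring genes, as defined below, had a median log2 fold change of -0.71. SOX9, a transcription factor of stem and progenitor cells, was at 9.98 and 9.93 CPM in HER2 L755S and 4.05 and 2.79 CPM in HER2 WT, with a log2 fold change of 1.54 (SE 0.40) and an adjusted p of 0.092. NKD1, an inhibitor induced by the pathway, had a log2 fold change of 1.84 (SE 0.68, adjusted p 0.30) at under 1 CPM in each library. ESR1, which encodes the estrogen receptor, was at 64.7 and 122 CPM in HER2 L755S and 176 and 282 CPM in HER2 WT, without overlap, with a log2 fold change of -1.29 (SE 0.38) and an adjusted p of 0.15.

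Genes on chromosomes 1, 8 and 11 had lower medians than the rest, at -0.19, -0.38 and -0.27 on the log2 scale for HER2 L755S over HER2 WT, and these chromosomes were picked out after their medians were seen. Of the 10 tested members on them, 7 were lower in HER2 L755S without overlap and 1 higher, where 35.5% of all tested genes there were lower and 8.93% higher. Of the 25 members elsewhere, 5 were lower and 6 higher, where 15.6% of tested genes were lower and 18.7% higher. Neighbours were taken as the 10 nearest tested protein-coding genes on each side, by start position. Their median log2 fold change was -0.32 around WNT9A, -0.30 around WNT4, -0.46 around DKK3, -0.43 around LGR4, -0.64 around WNT11 and -0.56 around LRP5. The neighbours' median was thus negative for these 6 members, all lower in HER2 L755S without overlap. Around the other 4 members on these chromosomes it was -0.17 for WNT2B, -0.13 for DVL1, 0.09 for FZD3 and 0.08 for FZD4. In CPM, WNT2B was itself lower and FZD3 higher without overlap, while in TPM the lines overlapped for both. Relative to the neighbours' median, WNT9A was at -1.91 and WNT4 at -1.61, while LRP5 was at -0.28 and WNT11 at -0.53. The neighbours of FZD1, FZD7 and TCF7 had medians of -0.05, 0.18 and 0.22, and those members stood 1.80 above, 1.26 below and 1.19 above them. Negative medians were also found around members elsewhere, at -0.26 for WNT7B, -0.20 for FZD2 and -0.20 for WNT6. The log2 fold changes of these genes were 0.50, -0.54 and -0.03. Among named genes outside the members, the neighbours' median was -0.71 for CCND1, -0.875 for BCL9, -0.23 for ROR1, -0.18 for DRAXIN and -0.12 for TRABD2B. Relative to that median, CCND1 was at -0.47, BCL9 at 0.26, ROR1 at -1.83, DRAXIN at -1.30 and TRABD2B at 0.84. Differences in gene dosage between the lines were not measured here, and their part in these values was not tested.

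**Figure D5:**
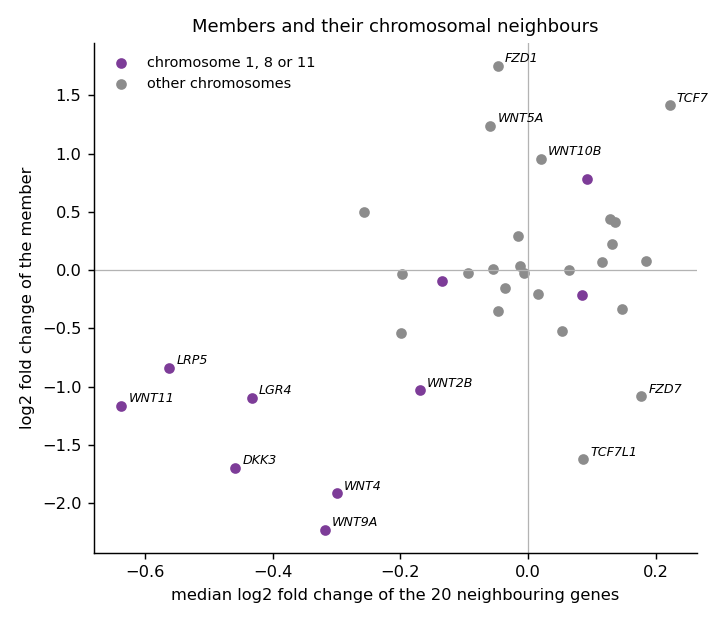
Log2 fold change of each tested member (vertical axis) against the median log2 fold change of its neighbours (horizontal axis), HER2 L755S over HER2 WT. Neighbours are the 10 nearest tested protein-coding genes on each side. Members on chromosomes 1, 8 and 11 are in purple and the others in grey. LRP5, WNT11, LGR4, DKK3, WNT4 and WNT9A lie at the left, where the neighbours' median was between -0.64 and -0.30.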

How the data were processed

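Libraries were made by poly(A) selection from 250 ng of total RNA with a TruSeq kit, per the labels' protocols; STAR, edgeR and GRCh38 are named in the submitters' processing notes. Per the file headers, the authors deposited RSEM gene tables with an expected count (an estimated count, not whole in 9.53% to 11.5% of genes), TPM, FPKM (not used) and effective lengths for each library. Group and replicate number come from the titles. Expected counts were rounded, filtered with filterByExpr and tested over 16538 genes with edgeR 4.0.16 (R 4.3.3; TMM, quasi-likelihood, two-sided, Benjamini-Hochberg, threshold 0.05). CPM uses TMM-scaled totals. Within-number differences were taken on log2 CPM, adding a prior of 0.5 counts. TPM of the authors served for levels between genes. On simulated data with 16538 genes, 6.5% of genes changed 2-fold were recovered, 67.3% at 4-fold, 84% at 8-fold and 98% at 16-fold, with 8 of 135 calls false. Positions come from GENCODE 29, which placed 16426 tested genes. A permutation of 2 against 2 libraries cannot give a two-sided p under 0.333.

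Alternatives were DESeq2 1.42.0 (size factors, and its own test), no scaling, limma 3.58.1 voom, other filters, a replicate block, each library left out, an adjusted p of 0.01 and, chosen after seeing the data, scaling without chromosomes 1, 8 and 11 and no mitochondrial genes. The neighbour medians and effective lengths were also added after seeing the data. The members and lists were chosen with earlier results of these data known. Full statistics were set for called members, WNT4, frizzleds and LRP coreceptors, levels for the other members, and at most 3 genes of lowest adjusted p per further list, with CTNNB1 and ESR1.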

Additional observations from a re-analysis of the deposited data

How the results depend on the processing

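With 2 libraries a line, calls depended on the tool and on single libraries. Over all genes, 122 were called higher and 157 lower in HER2 L755S; DESeq2's test gave 276 and 309, no filter on low counts 328 and 431, an adjusted p of 0.01 gave 49 and 49, and leaving out 1 library gave 165 to 219 and 177 to 338. Members called higher, 1 in the reported fit, numbered 2 with DESeq2 or no filter, 0 with no scaling, limma-voom, scaling without chromosomes 1, 8 and 11 or an adjusted p of 0.01, and 0 to 1 with a library left out. Members called lower, also 1, numbered 3 with DESeq2 or no filter, 0 at 0.01, and 0 to 2 with a library left out. The members' median log2 fold change of -0.0335 ran from -0.32 (without HER2 L755S library 1) to 0.0349 (without HER2 L755S library 2) with a library left out. The causes were not tested.

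The libraries share replicate numbers, but the labels do not say what a number marks. Deviations of same-numbered libraries correlated at 0.425 over 16538 genes, and those of differently numbered libraries at -0.425. With 2 libraries a line these values are equal and opposite by construction, so they do not show what a number marks. A fit with the number as a block called 725 genes higher and 1018 lower, 3 members higher and 7 lower. Beside FZD1 and WNT9A, the block gave adjusted p-values by edgeR's quasi-likelihood test of 0.00014 for WNT4, 0.00041 for TCF7, 0.00080 for LGR4, 0.0038 for FZD7, 0.0043 for WNT11, 0.0045 for DKK3, 0.0055 for LRP5 and 0.022 for WNT10B. With the block the log2 fold change changed sign for WNT6 (0.00295), FZD8 (0.0454) and APC (0.0564).

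Of the named genes' values under the alternatives, 548 kept direction and side of the threshold, 35 passed it anew, 8 no longer passed it and 40 changed sign. With a library left out, the log2 fold change took both signs for WNT6 (-1.36 to 1.5), FZD2 (-0.972 to 0.128), FZD4 (-0.476 to 0.0374), FZD8 (-0.414 to 0.544), LRP6 (-0.201 to 0.815), ZNRF3 (-0.0752 to 0.182), DVL1 (-0.474 to 0.458), DVL2 (-0.114 to 0.26), DVL3 (-0.259 to 0.163), AXIN1 (-0.546 to 0.0627), AXIN2 (-0.118 to 0.168), APC (-0.438 to 0.651), GSK3A (-0.345 to 0.322) and CTNNB1 (-0.158 to 0.218). The sign also changed with limma-voom for WNT6 (0.0502), FZD8 (0.0513) and APC (0.06). No scaling turned AXIN2 (-0.0549), GSK3A (-0.0253) and CTNNB1 (-0.0122), and scaling without chromosomes 1, 8 and 11 turned AXIN2 (-0.0358) and GSK3A (-0.0107). A filter of 50 counts turned AXIN2 (-0.0079). APC turned with DESeq2's factors and with its test (0.0218 each), with no filter (0.000108) and with no mitochondrial genes (0.0215). At these depths 3 counts are 0.0927 to 0.117 CPM, and the 23 genes under the filter, with at most 8 counts in a library, were not tested.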
